A study of Mus musculus with 18 samples.

Results

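The genes that build cholesterol and fatty acids, together with the regulators and export pumps that balance them, were followed through sorted cells of the mouse thyroid. The set holds 35 genes picked by name. Each was represented by its brightest probe on Agilent whole mouse genome arrays, and all 35 passed the filter on dim probes, among 20456 of 27945 gene names that did so. By role, 8 act from the cytosolic thiolase to squalene, 10 from squalene to cholesterol, 6 regulate the sterol sensor or carry sterols, 7 make fatty acids, and 4 are the LXR receptors and their export pumps. All groups were thyroid cells of C57BL/6 mice of both sexes, freed with collagenase and dispase, kept in culture for 2 days, stained with a Hoechst DNA dye and sorted. The side population pumps the dye out, which verapamil blocks, and the main population is the rest. The groups were side population after partial thyroidectomy (TSP, 6 arrays), side population without it (CSP, 6), main population after partial thyroidectomy (TMP, 3) and main population without it (CMP, 3). The series' design calls the samples of a group biological replicates. Age, pooling of animals and time after surgery are not given in the sources used here.

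Cholesterol is made from acetyl-CoA by way of mevalonate, squalene and lanosterol. The transcription factors SREBP1 and SREBP2, encoded by Srebf1 and Srebf2, are held in the endoplasmic reticulum by Insig proteins through their escort Scap when sterols are plentiful. When sterols run short they are released, enter the nucleus and switch on the synthesis genes, together with the factors NF-Y, which binds CCAAT boxes, and Sp1, which binds GC boxes. When sterols are in excess, oxysterols activate the nuclear receptors LXR, and these raise export pumps such as Abca1 and Abcg1 and, in liver, lipogenic genes such as Srebf1 and Scd1.

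Promoters of 28 of the 35 genes are held in the RefSeq table (GRCm38.p6), from 250 bases before the transcript start to 50 after it. They were searched on both strands for 4 motifs: CCAAT (the CCAAT box), GGGCGG (the GC box), CACGTG (the E-box) and TCACNCCAC (a sterol regulatory element core). Matches of different motifs shared no base in these 28 genes. The CCAAT box was present in 21 of the 28 (75%), against 41.1% of 27025 genes. All 9 genes from squalene to cholesterol that could be searched held one, and none of the 3 LXR receptor and pump genes did. The GC box was present in 22 of 28, or 78.6%, against 38.2% of all genes, and the E-box in 6 of 28, or 21.4%, against 8.09%. The sterol regulatory element core was found in Hmgcs1 alone, against 1.44% of all genes. A match is a description of the letters, not of a bound site. The 250 bases before the start are printed here for 4 genes called lower in CSP than in CMP, picked because they hold several CCAAT boxes or the sterol element, and for Ebp, which has the same box and was not called. Mvd and Nsdhl, also called lower, hold several CCAAT boxes too and are not printed. Tm7sf2 and Sc5d, among others called lower, hold 1 CCAAT box each and are not printed. Elovl6, called lower as well, holds none. Among the searched genes the box was present in 13 of 14 called lower and in 8 of 14 not called. Capitals mark CCAAT boxes (ATTGG where they lie on the other strand) and, in Hmgcs1, the sterol regulatory element core.
Hmgcs1, chr13:119690101-119690350, plus strand: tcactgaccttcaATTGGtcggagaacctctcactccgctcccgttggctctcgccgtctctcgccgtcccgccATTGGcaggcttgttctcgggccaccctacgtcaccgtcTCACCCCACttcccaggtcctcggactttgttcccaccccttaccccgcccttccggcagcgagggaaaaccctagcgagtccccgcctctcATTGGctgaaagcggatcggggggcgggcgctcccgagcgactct
Sc4mol, chr8:64733579-64733828, minus strand: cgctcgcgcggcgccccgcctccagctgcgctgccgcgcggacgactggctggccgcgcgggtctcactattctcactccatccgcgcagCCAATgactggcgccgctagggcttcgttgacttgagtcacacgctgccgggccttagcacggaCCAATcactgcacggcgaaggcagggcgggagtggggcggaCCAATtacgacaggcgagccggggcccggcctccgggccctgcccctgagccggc
Hsd17b7, chr1:169969206-169969455, minus strand: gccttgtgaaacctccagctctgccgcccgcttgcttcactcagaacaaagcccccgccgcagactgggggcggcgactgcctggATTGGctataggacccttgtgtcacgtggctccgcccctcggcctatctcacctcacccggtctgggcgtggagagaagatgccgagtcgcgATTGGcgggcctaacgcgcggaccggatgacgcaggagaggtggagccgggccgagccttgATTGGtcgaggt
Idi1, chr13:8885356-8885605, plus strand: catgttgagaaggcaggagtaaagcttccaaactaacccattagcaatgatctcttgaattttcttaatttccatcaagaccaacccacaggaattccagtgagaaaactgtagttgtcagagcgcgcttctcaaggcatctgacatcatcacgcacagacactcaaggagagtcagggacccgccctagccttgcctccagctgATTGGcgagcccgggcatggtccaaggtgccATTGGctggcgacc
Ebp, chrX:8193513-8193762, minus strand: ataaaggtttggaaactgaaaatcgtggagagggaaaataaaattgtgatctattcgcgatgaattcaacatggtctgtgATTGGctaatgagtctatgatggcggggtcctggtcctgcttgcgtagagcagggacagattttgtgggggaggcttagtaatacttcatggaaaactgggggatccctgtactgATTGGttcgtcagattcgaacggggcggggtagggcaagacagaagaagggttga
Hmgcs1 holds 3 CCAAT boxes in this window and its sterol element begins at position -137 from the start. Sc4mol and Hsd17b7 hold 3 each, and Idi1 and Ebp hold 2 each.

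Values below are log2 ratios of a sample, labelled with Cy5, over a common reference of RNA from several tissues of Swiss Webster mice, labelled with Cy3 without a dye swap. A ratio ranks samples for 1 gene and says nothing of the level of 1 gene against another. In Cy5, 38.8% to 72% of an array's spots exceeded background clearly. Precision is set by how many arrays there are. Of the 35 genes, 32 were well above background on all 18 arrays, Mvd and Insig1 on 16 and Lss on 15. The arrays lay on 5 slides. CSP and CMP shared only slide 4, and TSP and TMP only slide 5. The arrays labelled TSP 1 and TSP 2 stood apart: across all genes, which are not independent, their median r was 0.949 with arrays of the main population and 0.696 with the remaining arrays of the side population. Results that rest on TSP are therefore given with and without them, and they also enter the spread of every comparison. An adjusted p under 0.05 in limma (Benjamini-Hochberg over all 20456 genes) is a call.

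**Figure D1:**
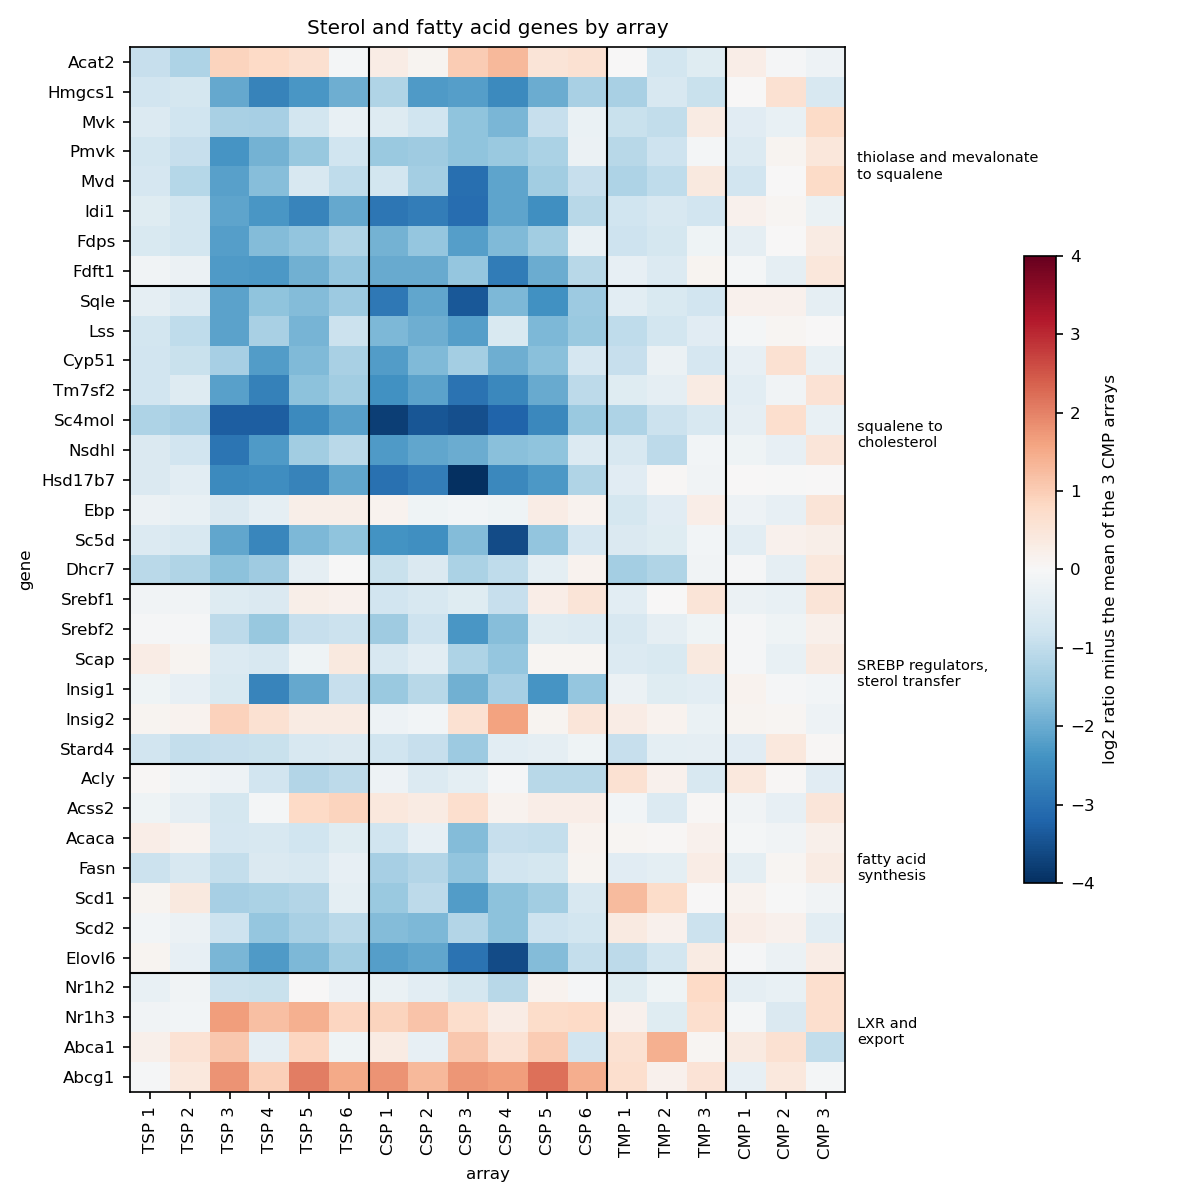
Log2 ratio of each of the 35 genes (rows, grouped by role) on each of the 18 arrays (columns), minus that gene's mean over the 3 CMP arrays, with blue for lower and red for higher. TSP 3 to TSP 6 and the CSP arrays share blue rows for most of sterol synthesis, whereas TSP 1 and TSP 2 are paler; Acat2, Nr1h3 and Abcg1 are red on all CSP arrays.

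In glands without surgery, RNA for most of the cholesterol pathway was less abundant in the side population than in the main population. So was RNA for the fatty acid genes Elovl6, Scd1 and Scd2, whereas RNA for the sterol export pump Abcg1 was more abundant. In CSP against CMP, 19 of the 35 genes were lower and 1 was higher (limma, adjusted p under 0.05), against 7.24% of all genes called lower and 7.61% called higher. The median log2 difference of the 35 genes was -1.26, against 0.06 over all genes. On 16 of the 19 lower genes every CSP array lay below every CMP array, a pattern seen in 9.18% of all genes. Higher genes made up 51.2% of all calls, against 32.5% with median centring in place of loess and 61.7% with slide as a block. In RNA from mixed cells, fewer cells of a type and less RNA per cell cannot be told apart. Without TSP 1 and TSP 2 the count was again 19 lower and 1 higher, with 9.04% of all genes lower and 10.2% higher. The count rests on the 3 CMP arrays: it was 8 without CMP 2, 13 without CMP 3 and 15 without CMP 1, with 2.78%, 10.3% and 5.6% of all genes called. It was 18, 18 and 19 when TSP 1 and TSP 2 were also left out, with 2687, 3546 and 2665 of all genes called.

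From acetyl-CoA to squalene, 6 of 8 genes were lower. Idi1, the isopentenyl diphosphate isomerase, ranged from -1.65 to 0.29 with a median of -1.22 on the 6 CSP arrays, against 1.56, 1.49 and 1.13 on CMP 1, CMP 2 and CMP 3. No CSP array reached the CMP arrays. Idi1 was 5.25-fold lower (log2 -2.39 ± 0.45 SE, adjusted p = 0.00798) by limma; its probe is placed on chromosome 2 at 53701852 to 53701911 of mouse build mm7 by the file headers, whereas the RefSeq gene lies on chromosome 13. Hmgcs1, the cytosolic synthase that makes HMG-CoA, ranged from -2.60 to -1.25 with a median of -2.13 on the 6 CSP arrays, against -0.02, 0.58 and -0.67 on CMP 1, CMP 2 and CMP 3. The groups did not overlap, and CMP 3 was the lowest of the CMP arrays. Hmgcs1 was 3.79-fold lower (log2 -1.92 ± 0.42 SE, adjusted p = 0.00927). The other probes of Hmgcs1 gave -1.86 and -0.10. Fdft1, squalene synthase, ranged from -2.17 to -0.46 with a median of -1.36 on the 6 CSP arrays, against 0.55, 0.27 and 1.09 on CMP 1, CMP 2 and CMP 3. The groups were again apart, and Fdft1 was 3.77-fold lower (log2 -1.91 ± 0.46 SE, adjusted p = 0.0117). Its second, dimmer probe gave 0.68, so the 2 probes disagree in sign. Among the other 3 lower genes, Mvd, the decarboxylase of the pathway, averaged -0.84 ± 0.85 on CSP arrays and 0.75 ± 0.78 on CMP arrays (SD, n = 6 and 3; log2 -1.59, adjusted p = 0.0366, limma). Fdps, which makes farnesyl diphosphate, averaged -1.21 ± 0.67 on CSP and 0.31 ± 0.34 on CMP arrays (log2 -1.52, adjusted p = 0.014), and its second probe gave -0.10. Pmvk, a mevalonate pathway kinase, averaged 0.26 ± 0.52 on CSP and 1.52 ± 0.51 on CMP arrays (log2 -1.26, adjusted p = 0.0349). Arrays of the 2 groups overlapped for these 3 genes. The call of Pmvk was lost without any of 7 single arrays (adjusted p up to 0.139, limma), that of Mvd without any of 5 (up to 0.167) and that of Fdps without either of 2. Mvk, mevalonate kinase, was not called at -1.20 ± 0.61 on CSP and -0.21 ± 0.66 on CMP arrays (log2 -0.99, adjusted p = 0.0901). Acat2, the cytosolic thiolase that opens the pathway, stood on the other side at 1.18 ± 0.44 on CSP and 0.54 ± 0.24 on CMP arrays and was not called (log2 0.64, adjusted p = 0.337).

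From squalene to cholesterol, 8 of 10 genes were lower, and for each of the 8 no CSP array overlapped the CMP arrays. Sc4mol, now named Msmo1, the oxidase that removes methyl groups from carbon 4 of the sterol ring, ranged from -1.78 to 0.51 with a median of -1.32 on the 6 CSP arrays, against 1.62, 2.66 and 1.70 on CMP 1, CMP 2 and CMP 3. No CSP array reached the CMP arrays, and CSP 6 lay nearest to them. Sc4mol was 7.98-fold lower (log2 -3.00 ± 0.50 SE, adjusted p = 0.00798) by limma, the largest difference among the 35 genes. Hsd17b7, a keto-reductase of the same step, ranged from -4.08 to -1.27 with a median of -2.75 on the 6 CSP arrays, against -0.07, -0.08 and -0.07 on CMP 1, CMP 2 and CMP 3. The 3 CMP arrays were almost equal and all CSP arrays lay below them, and Hsd17b7 was 6.21-fold lower (log2 -2.64 ± 0.53 SE, adjusted p = 0.00807). Sqle, squalene epoxidase, ranged from -2.84 to -0.89 with a median of -1.70 on the 6 CSP arrays, against 0.73, 0.72 and 0.20 on CMP 1, CMP 2 and CMP 3. It was 5.03-fold lower (log2 -2.33 ± 0.41 SE, adjusted p = 0.00798), with no overlap. Tm7sf2, a sterol C14 reductase, ranged from -4.24 to -2.32 with a median of -3.58 on the 6 CSP arrays, against -1.72, -1.42 and -0.71 on CMP 1, CMP 2 and CMP 3. Again the groups were apart, and Tm7sf2 was 4.58-fold lower (log2 -2.20 ± 0.45 SE, adjusted p = 0.0081). Sc5d, the C5 desaturase, ranged from -2.13 to 0.79 with a median of -0.62 on the 6 CSP arrays, against 1.05, 1.63 and 1.70 on CMP 1, CMP 2 and CMP 3. The highest CSP array lay below the lowest CMP array, and Sc5d was 4.2-fold lower (log2 -2.07 ± 0.50 SE, adjusted p = 0.0123). The second probe of Sc5d gave -1.07. Nsdhl, the C4 decarboxylase, averaged -1.34 ± 0.61 on CSP and 0.35 ± 0.43 on CMP arrays (log2 -1.69, adjusted p = 0.0195, limma). Its other probes gave -1.42, -1.29 and -0.47, the last above background on 3 arrays. The call of Nsdhl was lost without any of 3 single arrays (adjusted p up to 0.0855, limma). Lss, lanosterol synthase, averaged -1.22 ± 0.56 on CSP and 0.42 ± 0.08 on CMP arrays (log2 -1.64, adjusted p = 0.00816). The other probes of Lss gave -1.22 and -0.96. Cyp51, the lanosterol demethylase, averaged -0.52 ± 0.54 on CSP and 1.08 ± 0.53 on CMP arrays (log2 -1.61, adjusted p = 0.00917). The 2 genes that were not called act late in the pathway, but so does Sc5d, which was lower. Ebp, the sterol isomerase, averaged -0.59 ± 0.19 on CSP and -0.62 ± 0.46 on CMP arrays, with a log2 difference of 0.02 (95% interval -0.52 to 0.57). Dhcr7, which reduces 7-dehydrocholesterol to cholesterol, averaged -2.31 ± 0.50 on CSP and -1.64 ± 0.38 on CMP arrays, with a difference of -0.67 (95% interval -1.46 to 0.12).

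Among the regulators, 2 of 6 genes were lower. Insig1, the retention protein that is itself an SREBP target, ranged from -1.72 to -0.47 with a median of -0.88 on the 6 CSP arrays, against 0.78, 0.59 and 0.52 on CMP 1, CMP 2 and CMP 3. No arrays overlapped, and Insig1 was 3.07-fold lower (log2 -1.62 ± 0.43 SE, adjusted p = 0.0184) by limma. Its call was lost without either of 2 single arrays (adjusted p up to 0.0793, limma). Srebf2, which encodes the SREBP that chiefly drives cholesterol synthesis, ranged from -1.52 to 0.30 with a median of -0.31 on the 6 CSP arrays, against 0.76, 0.64 and 1.02 on CMP 1, CMP 2 and CMP 3. The highest CSP array stayed below the lowest CMP array, and Srebf2 was 2.33-fold lower (log2 -1.22 ± 0.38 SE, adjusted p = 0.0372). This call was lost without any of 6 single arrays (adjusted p up to 0.115, limma). Other probes of Srebf2 gave -1.48, -0.71 and -0.36. Stard4, a carrier of cholesterol between membranes, ranged from -2.16 to -0.87 with a median of -1.31 on the 6 CSP arrays, against -1.16, -0.27 and -0.66 on CMP 1, CMP 2 and CMP 3. The groups overlapped and it was not called (log2 -0.69, adjusted p = 0.0895); another of its 3 probes gave 0.47. Srebf1, which encodes the SREBP1 forms, averaged -0.40 ± 0.59 on CSP and -0.06 ± 0.45 on CMP arrays, and Scap -1.06 ± 0.68 on CSP and -0.45 ± 0.33 on CMP arrays; neither was called. Insig2, the second retention protein, averaged -0.30 ± 0.66 on CSP and -0.72 ± 0.17 on CMP arrays and was not called (log2 0.42, adjusted p = 0.412).

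Of the fatty acid genes, 3 of 7 were lower, namely Elovl6, Scd1 and Scd2. Fasn, Acaca, Acly and Acss2 did not pass the test. Elovl6, the elongase of saturated chains, ranged from -2.10 to 0.53 with a median of -0.66 on the 6 CSP arrays, against 1.43, 1.25 and 1.78 on CMP 1, CMP 2 and CMP 3. All CSP arrays lay below the CMP arrays, and Elovl6 was 4.75-fold lower (log2 -2.25 ± 0.53 SE, adjusted p = 0.0113) by limma. Scd2, a stearoyl-CoA desaturase, ranged from -2.35 to -1.27 with a median of -1.97 on the 6 CSP arrays, against -0.28, -0.39 and -0.98 on CMP 1, CMP 2 and CMP 3. Scd1, a second desaturase, ranged from -3.74 to -2.15 with a median of -2.94 on the 6 CSP arrays, against -1.36, -1.51 and -1.63 on CMP 1, CMP 2 and CMP 3. Both desaturases were without overlap: Scd2 was 2.49-fold lower (log2 -1.32 ± 0.36 SE, adjusted p = 0.0214) and Scd1 was 2.65-fold lower (log2 -1.41 ± 0.40 SE, adjusted p = 0.0253). The call of Scd1 was lost without any of 3 single arrays (adjusted p up to 0.0993, limma). That of Scd2 was lost without either of 2 (up to 0.103). Both calls were also lost with scale normalization between arrays. Fasn, fatty acid synthase, averaged -0.94 ± 0.60 on CSP and -0.03 ± 0.37 on CMP arrays and just missed the threshold (log2 -0.91, adjusted p = 0.0515, limma). Its second probe gave -0.09. Acaca, acetyl-CoA carboxylase, averaged -0.50 ± 0.64 on CSP and 0.27 ± 0.19 on CMP arrays (log2 -0.77, adjusted p = 0.122). Acly, which makes cytosolic acetyl-CoA from citrate, averaged 0.20 ± 0.45 on CSP and 0.77 ± 0.43 on CMP arrays (log2 -0.57, adjusted p = 0.288). Acss2, which makes it from acetate, averaged -2.38 ± 0.18 on CSP and -2.72 ± 0.42 on CMP arrays (log2 0.35, adjusted p = 0.502).

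Of the LXR genes, Abcg1, a pump that passes cholesterol to lipoproteins, ranged from -0.28 to 0.65 with a median of 0.13 on the 6 CSP arrays, against -1.89, -1.16 and -1.66 on CMP 1, CMP 2 and CMP 3. Every CSP array lay above every CMP array, which held for 11.1% of all genes, and Abcg1 was 3.24-fold higher (log2 1.69 ± 0.37 SE, adjusted p = 0.00917) by limma. Nr1h3, encoding LXR alpha, ranged from -0.38 to 0.45 with a median of 0.08 on the 6 CSP arrays, against -0.77, -1.25 and -0.02 on CMP 1, CMP 2 and CMP 3. CMP 3 lay within the CSP range and Nr1h3 was not called (log2 0.76, adjusted p = 0.215). Nr1h2, encoding LXR beta, ranged from -0.10 to 1.15 with a median of 0.66 on the 6 CSP arrays, against 0.64, 0.70 and 1.66 on CMP 1, CMP 2 and CMP 3, with overlap and no call (log2 -0.40, adjusted p = 0.468). Abca1, the pump that passes cholesterol to lipid-poor apolipoproteins, averaged 0.01 ± 0.74 on CSP and -0.31 ± 0.87 on CMP arrays, a log2 difference of 0.32 (95% interval -0.63 to 1.27).

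**Figure D2:**
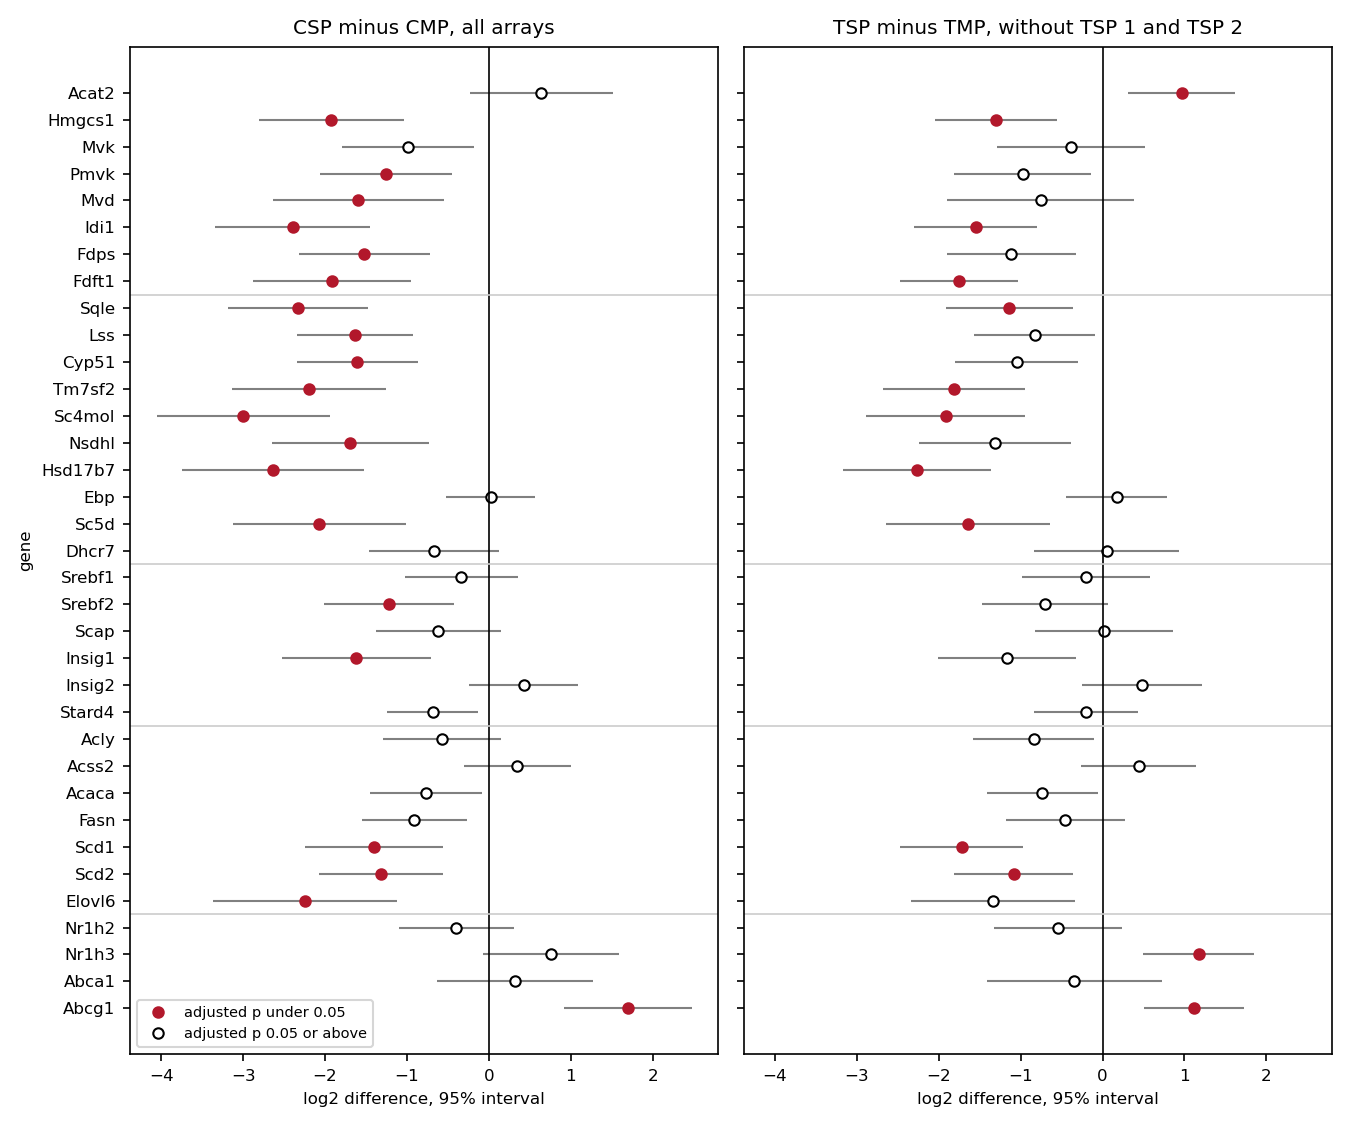
Log2 difference (point) and 95% interval (line) of each gene, for CSP minus CMP with all arrays (left) and TSP minus TMP without TSP 1 and TSP 2 (right); filled points have an adjusted p under 0.05 (limma) and grey lines part the roles. The largest differences are those of Sc4mol at -3.00 on the left and Hsd17b7 at -2.26 on the right, and Abcg1 lies above 0 on both sides.

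Markers of other cell types moved with these genes. In CSP against CMP 8 of 13 thyroid follicular and 12 of 12 epithelial markers were lower, and 11 of 12 endothelial and 9 of 11 fibroblast markers were higher (limma). The mean log2 ratio of the follicular markers lay between -0.10 and 1.30 on CSP arrays, with 2 to 12 of 13 above background, against 2.02 to 2.46 on CMP arrays with 11 to 13. That of the epithelial markers lay between -1.18 and 2.14 on CSP and between 3.18 and 3.64 on CMP arrays. The endothelial mean was 0.67 to 2.14 on CSP and -2.16 to -1.48 on CMP arrays, and the fibroblast mean -1.51 to 0.92 on CSP and -3.72 to -3.04 on CMP arrays. Of 10 adipocyte markers 2 were higher, with means from -2.03 to -1.64 on CSP and from -2.96 to -2.05 on CMP arrays. Of 13 macrophage and leukocyte markers 1 was higher and 3 were lower, with means from -3.85 to -3.12 on CSP and from -2.81 to -2.49 on CMP arrays. CSP 6 had the highest follicular and epithelial means of the CSP arrays, 1.30 and 2.14. It was also the highest CSP array for 14 of the 19 lower genes of the set, and for 54.5% of all genes called lower. The part of cell composition in the differences was not tested.

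CSP 5, CSP 6 and CMP 2 lay together on slide 4. Within that slide all 20 called genes kept the direction of their difference, and the median of the 35 was -0.85. No gene of the set was called there, nor any of the 20442 genes tested (limma), although 4379 had an unadjusted p under 0.05. With slide as a block in the fit of all arrays, 19 genes of the set were lower and 3 higher, with 28.1% of all genes called in either direction. The higher ones were Abcg1, Acat2 and Acss2, and the lower ones included Acly and no longer Nsdhl.

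After partial thyroidectomy, genes of the set differed between side and main population by the test once TSP 1 and TSP 2 were set aside, and not with them. With all arrays, none of the 35 genes passed the test in TSP against TMP (limma); 8 had an unadjusted p under 0.05, as did 2794 of all genes, of which 0% passed. The median of the 35 was -0.60, against 0.03 over all genes. Without TSP 1 and TSP 2, a choice made after their profiles had been seen, 10 genes were lower and 3 higher, against 7.01% of all genes lower and 7.68% higher. The median was then -0.83, against 0.04 over all genes. Without TSP 2 alone 2 genes were called, Hsd17b7 and Scd1, and without TSP 1 alone none, with 2.99% and 2.49% of all genes called. With slide as a block and without both arrays the count was 8 lower and 2 higher, with 15.7% of all genes called. Without the arrays of slide 1 it was 12, with 14% of all genes called. TSP and TMP shared only slide 5. There the median log2 ratio of the 35 genes was -0.66 on TSP 5 and -0.38 on TSP 6, against 0.12 on TMP 3. For 23 of the 35 genes, and for 16 of the 20 called in CSP against CMP, both TSP 1 and TSP 2 lay nearer to the mean of the CMP arrays than to that of TSP 3 to TSP 6. The share over all genes was not counted, and the 20 had been picked for a difference between CSP and CMP. These counts therefore describe the 2 arrays and not a trait of the set.

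In the mevalonate stretch, Idi1 stood at -0.70, -0.95, -1.25 and -0.66 on TSP 3 to TSP 6 and 0.92 and 0.66 on TSP 1 and TSP 2, against 0.61, 0.74 and 0.63 on TMP 1 to TMP 3. TSP 3 to TSP 6 lay below all TMP arrays, while TSP 1 and TSP 2 lay among or above them. Without those arrays Idi1 was 2.93-fold lower (log2 -1.55 ± 0.36 SE, adjusted p = 0.00598) by limma. Hmgcs1 stood at -2.09, -2.70, -2.37 and -2.0 on TSP 3 to TSP 6 and -0.81 and -0.75 on TSP 1 and TSP 2, against -1.33, -0.69 and -0.94 on TMP 1 to TMP 3, and was 2.47-fold lower (log2 -1.30 ± 0.35 SE, adjusted p = 0.0172). Fdft1 stood at -1.64, -1.65, -1.28 and -0.92 on TSP 3 to TSP 6 and 0.51 and 0.39 on TSP 1 and TSP 2, against 0.31, 0.09 and 0.74 on TMP 1 to TMP 3. Its 4 remaining TSP arrays were all below the TMP arrays, and it was 3.37-fold lower (log2 -1.75 ± 0.34 SE, adjusted p = 0.00162). Acat2, the thiolase, went the other way at 1.42, 1.33, 1.19 and 0.48 on TSP 3 to TSP 6 and -0.37 and -0.68 on TSP 1 and TSP 2, against 0.57, -0.19 and 0.04 on TMP 1 to TMP 3. TSP 3, TSP 4 and TSP 5 lay above the TMP arrays and TSP 6 within their range. Without TSP 1 and TSP 2 Acat2 was 1.95-fold higher (log2 0.97 ± 0.31 SE, adjusted p = 0.0447), while its difference in CSP against CMP had missed the threshold.

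Between squalene and cholesterol, 5 of 10 genes were lower in TSP without TSP 1 and TSP 2. Hsd17b7 stood at -2.62, -2.57, -2.75 and -2.16 on TSP 3 to TSP 6 and -0.66 and -0.50 on TSP 1 and TSP 2, against -0.53, -0.03 and -0.23 on TMP 1 to TMP 3. The 4 arrays from TSP 3 on lay far below the rest, and Hsd17b7 was 4.79-fold lower (log2 -2.26 ± 0.43 SE, adjusted p = 0.00129) by limma. Sc4mol stood at -1.30, -1.31, -0.55 and -0.17 on TSP 3 to TSP 6 and 0.76 and 0.65 on TSP 1 and TSP 2, against 0.77, 1.14 and 1.34 on TMP 1 to TMP 3. It was 3.77-fold lower (log2 -1.92 ± 0.46 SE, adjusted p = 0.00775). Tm7sf2 stood at -3.45, -3.99, -2.92 and -2.66 on TSP 3 to TSP 6 and -2.03 and -1.79 on TSP 1 and TSP 2, against -1.75, -1.64 and -0.94 on TMP 1 to TMP 3, and was 3.51-fold lower (log2 -1.81 ± 0.41 SE, adjusted p = 0.00537). For both genes TSP 1 and TSP 2 also lay below the TMP arrays. Sc5d stood at -0.63, -1.17, -0.34 and -0.15 on TSP 3 to TSP 6 and 0.91 and 0.80 on TSP 1 and TSP 2, against 0.89, 0.98 and 1.34 on TMP 1 to TMP 3. Sqle stood at -1.59, -1.06, -1.18 and -0.92 on TSP 3 to TSP 6 and 0.18 and 0.01 on TSP 1 and TSP 2, against 0.12, -0.05 and -0.22 on TMP 1 to TMP 3. Both were apart from the TMP arrays once TSP 1 and TSP 2 were set aside, Sc5d 3.12-fold lower (log2 -1.64 ± 0.48 SE, adjusted p = 0.026) and Sqle 2.2-fold lower (log2 -1.14 ± 0.37 SE, adjusted p = 0.0447). Nsdhl and Cyp51 missed the threshold at -1.31 and -1.05 (adjusted p = 0.0546 and 0.0588, limma). Ebp and Dhcr7 had differences of 0.17 (95% interval -0.44 to 0.79) and 0.05 (95% interval -0.83 to 0.93).

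Of the fatty acid genes, Scd1 and Scd2 were lower. Scd1 stood at -2.84, -2.77, -2.69 and -1.90 on TSP 3 to TSP 6 and -1.40 and -1.11 on TSP 1 and TSP 2, against -0.23, -0.78 and -1.48 on TMP 1 to TMP 3. Its TMP arrays were themselves spread, yet all lay above TSP 3 to TSP 6, and Scd1 was 3.29-fold lower (log2 -1.72 ± 0.36 SE, adjusted p = 0.00272) by limma. Scd2 stood at -1.38, -2.11, -1.86 and -1.63 on TSP 3 to TSP 6 and -0.65 and -0.80 on TSP 1 and TSP 2, against -0.19, -0.36 and -1.42 on TMP 1 to TMP 3. TMP 3 overlapped with TSP 3, and Scd2 was 2.12-fold lower (log2 -1.08 ± 0.34 SE, adjusted p = 0.0418). Elovl6 was not called (-1.34, adjusted p = 0.0707). None of the 6 regulators was called, the nearest being Insig1 with -1.17 (adjusted p = 0.059). On the LXR side, Abcg1 stood at 0.23, -0.60, 0.48 and -0.05 on TSP 3 to TSP 6 and -1.61 and -1.14 on TSP 1 and TSP 2, against -0.90, -1.41 and -1.01 on TMP 1 to TMP 3. All 4 arrays lay above the TMP arrays and Abcg1 was 2.17-fold higher (log2 1.12 ± 0.29 SE, adjusted p = 0.0131). Nr1h3 stood at 0.99, 0.53, 0.74 and 0.19 on TSP 3 to TSP 6 and -0.83 and -0.81 on TSP 1 and TSP 2, against -0.50, -1.17 and -0.01 on TMP 1 to TMP 3, and was 2.26-fold higher (log2 1.18 ± 0.32 SE, adjusted p = 0.0182), again with no overlap. In this comparison 8 of 13 follicular and 12 of 12 epithelial markers were lower, and 11 of 12 endothelial and 11 of 11 fibroblast markers were higher. The follicular mean lay between -0.38 and 0.23 on TSP 3 to TSP 6, at 2.31 and 2.25 on TSP 1 and TSP 2, and between 2.23 and 2.43 on TMP arrays. The epithelial mean lay between -0.06 and 0.78 on TSP 3 to TSP 6, at 3.83 and 3.78 on TSP 1 and TSP 2, and between 3.15 and 3.74 on TMP arrays. The endothelial mean lay between 0.61 and 1.76 on TSP 3 to TSP 6, at -1.84 and -1.82 on TSP 1 and TSP 2, and between -2.01 and -1.35 on TMP arrays. Of 13 macrophage and leukocyte markers 1 was higher and 5 were lower, with means from -4.11 to -2.52 on TSP 3 to TSP 6, of -2.80 and -2.28 on TSP 1 and TSP 2, and from -2.71 to -2.03 on TMP arrays. Of 10 adipocyte markers 3 were higher, with means from -2.21 to -1.16 on TSP 3 to TSP 6, of -2.66 and -2.68 on TSP 1 and TSP 2, and from -2.90 to -2.23 on TMP arrays. The part of cell composition here was not tested either.

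**Figure D3:**
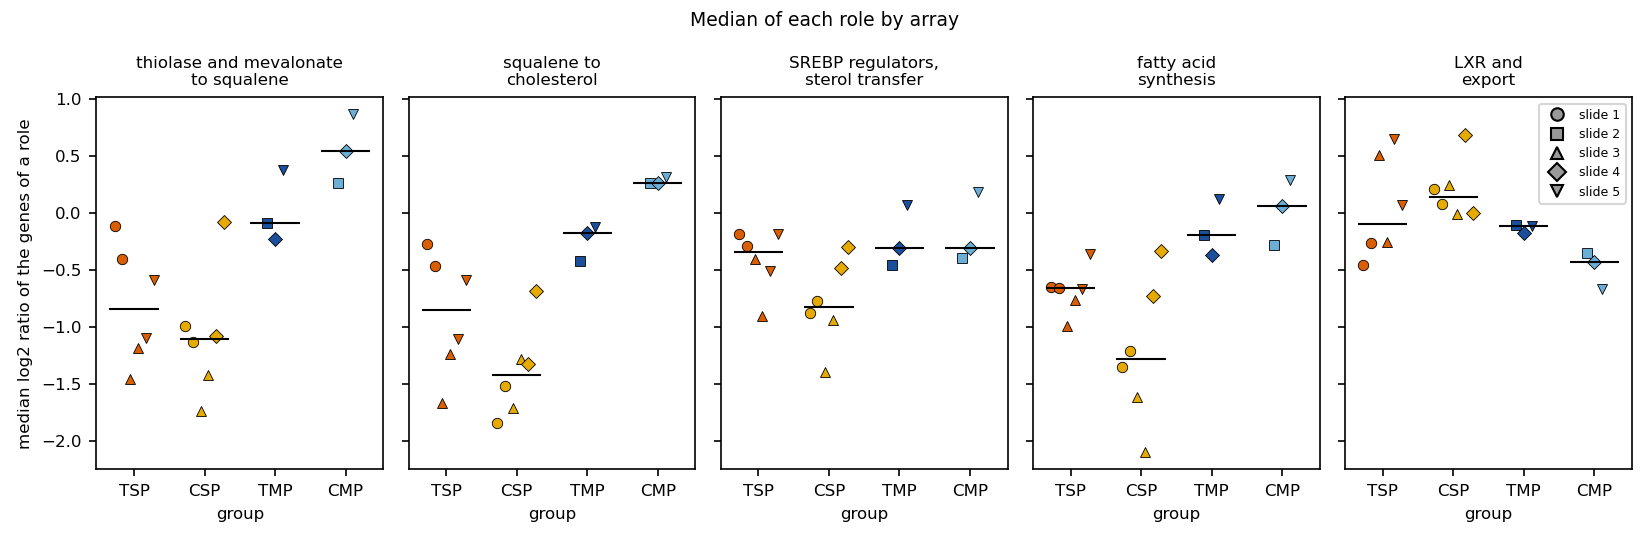
Median log2 ratio of the genes of each role (y axis) on each array, by group (x axis, colours) and slide (symbols), with a line at the median of each group. Squalene to cholesterol lies between -1.84 and -0.68 on CSP arrays and between 0.26 and 0.31 on CMP arrays; the 2 TSP arrays of slide 1 (TSP 1 and TSP 2) lie highest of the TSP arrays there.

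Within the side population, no difference of these genes after surgery passed the test in the fit without a slide term. In TSP against CSP 0 of 35 genes were called (limma, with 0% of all genes), 3 of the 35 had an unadjusted p under 0.05, and 1861 of all genes did. Those 3 were Sqle, Elovl6 and Scd1. With slide as a block, since TSP and CSP share slides 1 and 3, 1 of the 35 genes was called, Scd1, higher in TSP, with 4.4% of all genes called. With slide as a block and without TSP 1 and TSP 2, 0 of the 35 were called, with 18 of all genes called. Sqle averaged -0.76 ± 0.70 on TSP and -1.78 ± 0.72 on CSP arrays (SD, n = 6 each), a log2 difference of 1.02 (95% interval 0.33 to 1.72). Without TSP 1 and TSP 2 none of the 35 had an unadjusted p under 0.05, and the median difference was 0.08, with 0.22 when they were included. For Sqle the difference without them was 0.59 (95% interval -0.06 to 1.25). TSP 1 and TSP 2 shared slide 1 with CSP 1 and CSP 2, and within that slide 20 genes were higher and 4 lower, with 40.6% of all genes called. That contrast sets the arrays that stand apart against CSP. Within slide 3, which held TSP 3, TSP 4, CSP 3 and CSP 4, no gene of the set was called, nor any other (limma; 1406 of all genes had an unadjusted p under 0.05).

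Within the main population the arrays came in 3 pairs, TMP and CMP of the same number on 1 slide, and the sterol synthesis genes were lower after surgery in pair after pair by amounts that did not pass the test. None of the 35 genes was called in TMP against CMP (limma, with 0% of all genes called and 25 genes at an unadjusted p under 0.05). With the pairs as a block in a fit of the main population arrays, again none was called, while 6 of all genes (0.0293%) were. In that paired fit 1226 of all genes had an unadjusted p under 0.05 (limma). TMP and CMP arrays did not overlap for 6 of the 35 genes, each lower in TMP, against 1.24% of all genes; these were Hmgcs1, Idi1, Sqle, Lss, Sc4mol and Insig1. TMP was lower than its CMP partner in all 3 pairs for 21 of the 35 genes and higher in all 3 for 3, against 10.9% and 15.1% of all genes. All 8 genes from the thiolase to squalene and 9 of the 10 from squalene to cholesterol were lower in every pair, as were 3 of the 6 regulators, 1 of the 7 fatty acid genes and none of the 4 LXR genes. The medians of the 8 were -0.47, -0.73 and -0.41 in pairs 1, 2 and 3, and of the 10 they were -0.55, -0.75 and -0.36. The median of all genes was 0.08, -0.03 and -0.01.

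Sc4mol differed by -0.85, -1.52 and -0.36 (TMP minus CMP, pairs 1 to 3), from 0.77, 1.14 and 1.34 on the TMP arrays and 1.62, 2.66 and 1.70 on the CMP arrays. Hmgcs1 differed by -1.31, -1.26 and -0.27, and Dhcr7, which had not been called between CSP and CMP, by -1.31, -0.84 and -0.56. Pair 2 was the largest for Sc4mol and pair 1 for Hmgcs1 and Dhcr7, and pair 3 was the smallest for all 3 genes. Idi1 differed by -0.95, -0.75 and -0.50. Lss differed by -0.92, -0.80 and -0.45, and its TMP arrays did not overlap the CMP arrays. Tm7sf2 and Hsd17b7, both far lower in CSP than in CMP, showed little here, with -0.04, -0.23 and -0.23 for Tm7sf2 and -0.45, 0.05 and -0.16 for Hsd17b7, the one gene of its stretch without the same sign in every pair. Srebf2 differed by -0.60, -0.18 and -0.38, Insig1 by -0.39, -0.44 and -0.32 and Stard4 by -0.46, -0.83 and -0.38. Scd1 was higher in all pairs, by 1.14, 0.73 and 0.15, as was Abca1, by 0.23, 0.79 and 1.08. Nr1h3 was the remaining such gene, by 0.27, 0.08 and 0.01. By group means, the widest difference was that of Hmgcs1, -0.95 (95% interval -1.98 to 0.08), and its interval holds 0. That interval comes from the fit of all arrays, which does not use the pairs. The follicular marker mean lay between 2.23 and 2.43 on TMP arrays and between 2.02 and 2.46 on CMP arrays. The macrophage and leukocyte mean stood at -2.03, -2.71 and -2.03 on TMP 1 to TMP 3. On CMP 1 to CMP 3 it stood at -2.77, -2.81 and -2.49, lower in every pair. The endothelial mean stood at -1.35, -2.01 and -1.52 on TMP 1 to TMP 3. On CMP 1 to CMP 3 it stood at -1.48, -2.16 and -1.55, again lower in every pair, though the groups overlapped. The epithelial, fibroblast and adipocyte means of TMP and CMP arrays overlapped as well. These means and the follicular mean did not keep the same direction in every pair. No marker of the 6 lists was called, nor was any other gene in this comparison. The part of cell composition was not tested. CSP against CMP and TMP against CMP share the 3 CMP arrays.

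**Figure D4:**
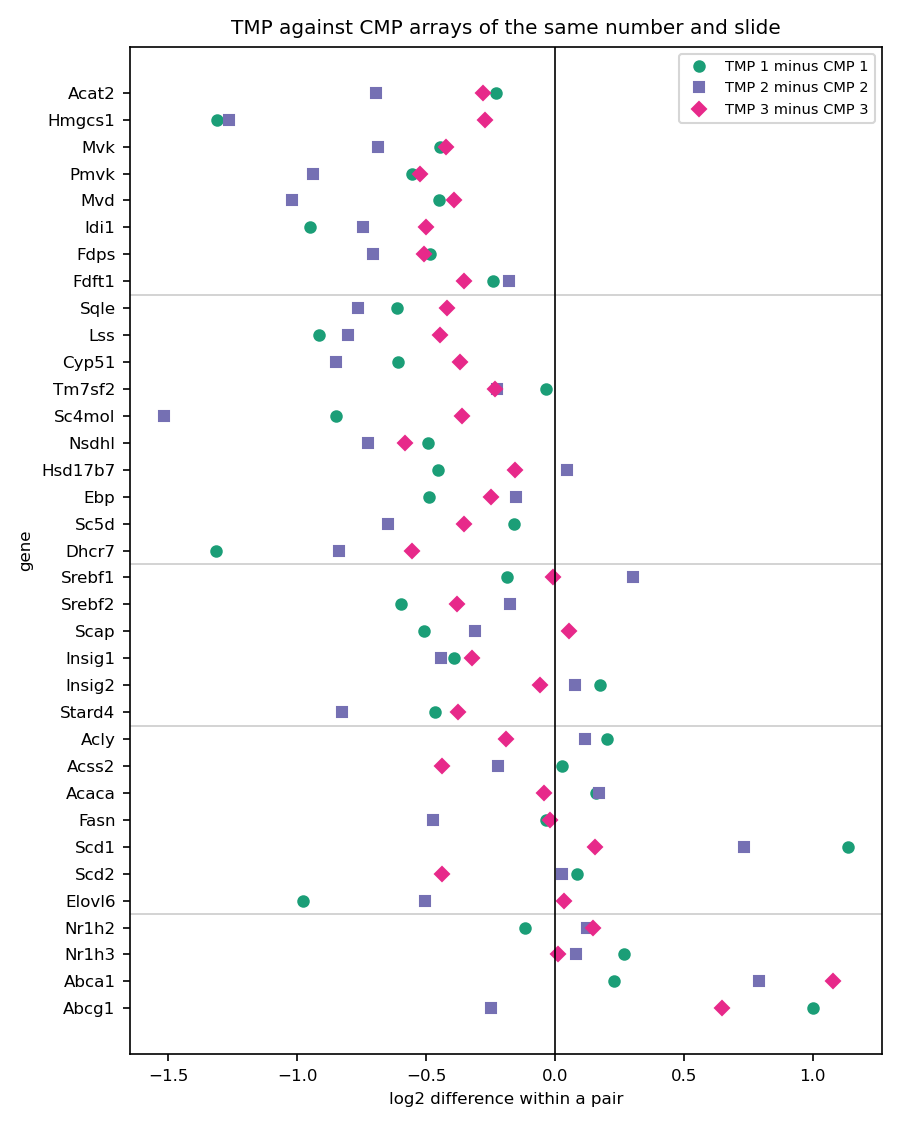
Log2 difference of TMP minus CMP (x axis) for each gene (y axis, grouped by role) in the 3 pairs of the same number and slide (symbols). All points of the upper role, from the thiolase to squalene, lie left of 0, between -1.31 and -0.18, whereas the points of fatty acid synthesis and of the LXR genes lie on both sides.

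The interaction, which asks whether the difference between side and main population changed with surgery, gave no call in the set (limma, 0% of all genes; 4 of the 35 and 221 of all genes had an unadjusted p under 0.05). Without TSP 1 and TSP 2, 1 of the 35 and 122 of all genes did. That gene was Sqle, with 1.19 (95% interval 0.14 to 2.25).

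Other genes of these pathways were set beside the shares of all genes called in CSP against CMP, 7.24% lower and 7.61% higher. Of 14 further fatty acid genes 3 were lower and 0 higher, with a median of -0.61. Me1, malic enzyme, which supplies NADPH, averaged -3.30 ± 0.44 on the CSP arrays and -0.63 ± 0.91 on the CMP arrays (SD, n = 6 and 3), 6.36-fold lower (limma, adjusted p = 0.0119). Acsl3, an acyl-CoA synthetase, averaged -0.90 ± 0.46 on the CSP arrays and 1.22 ± 0.48 on the CMP arrays (SD, n = 6 and 3), 4.37-fold lower (limma, adjusted p = 0.0146). Of 7 measured LXR target genes 1 was higher, with a median of 0.20. Mylip, a ubiquitin ligase, averaged 0.75 ± 0.72 on the CSP arrays and -1.06 ± 0.52 on the CMP arrays (SD, n = 6 and 3), 3.51-fold higher (limma, adjusted p = 0.0235). Lpcat3, a phospholipid acyltransferase, averaged -1.29 ± 0.32 on the CSP arrays and -0.62 ± 0.30 on the CMP arrays (SD, n = 6 and 3), 1.59-fold lower (limma, adjusted p = 0.054) and so was not called. Of 13 measured proteases, kinases and cofactors of the SREBP pathway 1 was higher, with a median of -0.02. Nfya, a subunit of NF-Y, averaged 0.88 ± 0.35 on the CSP arrays and 0.01 ± 0.29 on the CMP arrays (SD, n = 6 and 3), 1.83-fold higher (limma, adjusted p = 0.0347). Sp1 averaged 0.62 ± 0.60 on the CSP arrays and -0.29 ± 0.24 on the CMP arrays (SD, n = 6 and 3), 1.87-fold higher (limma, adjusted p = 0.0986) and was not called.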

How the data were processed

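RNA of 18 sorted thyroid samples was hybridised to 2-colour Agilent arrays. The deposited files hold spot intensities of both channels, made by the authors with Agilent Feature Extraction (9.5.1.1 per the file headers, 8.5.1.1 per the submitters' processing notes). A deposited value table holds log2 ratios for 33040 probes, 22551 of them with all values. Its normalization and centring are not given in the sources used here, its column medians lay between 0.127 and 0.302, and of its 18 columns, 9 correlated best with the scanner file of the same sample and 17 with one of the same group. It served only as an alternative.

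Mean signals were background-corrected with normexp (offset 50) and normalized by loess within arrays, in R 4.3.3 with limma 3.58.1. Control spots were left out and spots of a probe averaged. Of the probes whose Cy5 signal clearly exceeded background on 3 or more arrays, the brightest stood for each gene name. Group means of all 18 arrays were fitted with lmFit and eBayes over 20456 genes, with Benjamini-Hochberg adjustment and a threshold of 0.05. The procedure was tested on simulated data. The dye orientation was the same on all arrays, so a dye bias of a gene is shared by all groups. Tables and figures were made with Python 3.11.15 and matplotlib 3.10.9.

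Deviations of TMP and CMP arrays of the same number, which share slides, correlated at 0.67, 0.74 and 0.81, so these arrays were treated as pairs in an alternative fit. Such correlations were weaker elsewhere, from -0.05 to 0.46 for TSP and CSP. They lay between -0.26 and 0.13 for CSP and CMP and between -0.24 and 0.21 for TSP and TMP. Values of every array are given for the 3 genes of each role with the lowest adjusted p in CSP against CMP and for genes called in another comparison; other pathway genes are named by the 2 lowest adjusted p of each list, and 1 further list is not reported here. The genes, lists and rules were chosen with earlier results of these data known. Promoters are from RefSeq (GRCm38.p6), and probe positions are those of build mm7 per the file headers. Alternatives covered normalization, filters, probe choice, slide and replicate blocks, the authors' log2 ratios and left-out arrays.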

Additional observations from a re-analysis of the deposited data

Results flagged for a closer look

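In the CSP group, array CSP 6 lay far from the other 5 for 2 of 35 genes. For Pmvk it stood at a log2 ratio of 1.294, with the next array at 0.2495. For Nsdhl it stood at -0.1964, with the next at -1.268. In all, 70 groups of 6 arrays (CSP and TSP for each gene) were examined, and chance alone would mark about 1 in 20 of them. CSP 6 also had the highest follicular and epithelial marker means of the CSP arrays (1.30 and 2.14), and their part in these values was not tested.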

How the results depend on the processing

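In CSP against CMP the count of called genes was 20. When single arrays were left out it ranged from 8 (without CMP 2) to 22 (without CSP 6). All genes called then numbered 569 and 3177. Of the 20, 7 genes (Idi1, Sqle, Lss, Tm7sf2, Sc4mol, Hsd17b7 and Abcg1) were called each time. The other 13 lost their call without at least 1 array. The count was 0 within slide 4, where 3 arrays of these groups remain. It lay between 17 and 22 under the other normalizations, filters, probe choices and blocks, among 1976 to 5755 of all genes. Median centring moved the median of the 35 genes to -1.64, while that of all genes was -0.08. With the mean of all probes, Fdft1 and Fdps lost their calls, at -0.62 and -0.81. With the replicate block 18 genes were called, among 1976 of all genes, against 3037 without it; the calls of Mvd, Srebf2, Insig1 and Scd2 were lost. In the other comparisons the block changed no call of the set. In TSP against TMP the count was 0 with all arrays. It was 13 without TSP 1 and TSP 2, with 14.7% of all genes called, and 12 without slide 1, with 14%. With slide as a block and without TSP 1 and TSP 2 it was 10, with 15.7%. Leaving out single arrays gave 0 to 2. With TSP 1, TSP 2 and 1 CMP array left out, a choice made after seeing the data, it was 11, 10 and 13 (CMP 1, CMP 2 and CMP 3). All genes called then numbered 2903, 2829 and 3028. In TSP against CSP the count was 1 with slide as a block (Scd1), with 4.4% of all genes called. It was 0 when TSP 1 and TSP 2 were also left out. Within slide 1 it was 24, with 40.6% of all genes called. There Pmvk at 0.6363 and Nr1h3 at -1.14 were called with the sign turned. Why these counts moved was not tested. No alternative gave a call in TMP against CMP or in the interaction.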
